A study of Homo sapiens with 4 samples.

Results

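The 42 genes described here make up the core machinery of DNA replication and the regulators of entry into S phase. The rule picked them by symbol and used no measured value, though the list was drawn up with earlier results of these data known, and all 42 were found among the 16370 genes listed for either pair of cultures. Transcripts had been sequenced in 2 human hepatoma cell lines, Hep3B and Huh7 (hepatocellular carcinoma cells, HCC), and in the hepatic cancer stem cell (HCSC) lines cultured from them, Hep3B-C and Huh7-C. No genetic change or drug was named for any culture, and each line was 1 library of total RNA, so an HCSC line was compared with 1 culture of its parental line and there was no replicate. The HCSC lines are enriched cultures, and the share of stem cells in them was not part of these data.

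Before S phase, origins are licensed when CDC6 and CDT1 load the MCM2-7 helicase onto DNA. At the G1/S boundary cyclin D with CDK4 and cyclin E release E2F transcription factors, which act on the promoters of many genes of this list, and the helicase is then activated with the help of MCM10 and the GINS complex. Polymerase alpha with primase starts each strand, the RFC complex loads the PCNA clamp, polymerases delta and epsilon extend, RPA covers single strands, FEN1 and LIG1 join Okazaki fragments, and RRM1, RRM2, TYMS and TK1 supply deoxynucleotides. In a resting adult liver few hepatocytes replicate their DNA, whereas hepatoma lines in culture divide.

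An E2F site was searched for in the promoters of the members, because E2F factors are known regulators of this gene class. The motif was TTT, then C or G at each of 2 positions, then CGC, on either strand, in the window from 250 bases before to 50 bases after a gene start (RefSeq, GRCh38.p14). Windows were given for 35 members, and MCM4, MCM5, CCND1, POLD3, RPA2, RPA3 and CCNE2 were without one. Of the 35 members 20 held the motif (57.1%), compared with 3.99% of 27305 genes. Shown are the 250 bases before the gene start of the 4 members called up-regulated in Huh7-C, which all held a site, and of the 2 members called up-regulated in Hep3B-C in each of 8 settings of scaling, trends, filter and added count (all with counting noise alone), CDT1 with a site and POLD2 without. How many of all genes were called up in each of the 8 settings was not counted. The setting with the smallest share up in Hep3B-C, GC and length trends removed, called 5.17% of 15480 genes up. Capitals mark the E2F motif. Each is written 5′ to 3′ on the strand of its gene, at chr7:100101398-100101647 (minus strand), chr13:33817899-33818148 (plus), chr12:132687343-132687592 (minus), chrX:24693668-24693917 (plus), chr16:88803539-88803788 (plus) and chr7:44123549-44123798 (minus), all just upstream of the annotated start of the gene.
MCM7: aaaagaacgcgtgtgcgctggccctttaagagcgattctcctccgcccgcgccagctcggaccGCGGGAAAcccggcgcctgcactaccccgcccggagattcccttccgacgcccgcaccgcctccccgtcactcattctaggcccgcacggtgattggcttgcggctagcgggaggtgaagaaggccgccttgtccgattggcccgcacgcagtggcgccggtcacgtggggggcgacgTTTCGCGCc
RFC3: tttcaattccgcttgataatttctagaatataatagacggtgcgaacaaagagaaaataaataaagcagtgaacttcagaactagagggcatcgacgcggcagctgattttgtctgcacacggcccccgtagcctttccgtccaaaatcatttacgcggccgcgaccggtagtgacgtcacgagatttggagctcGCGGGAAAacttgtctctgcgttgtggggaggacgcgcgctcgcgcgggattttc
POLE: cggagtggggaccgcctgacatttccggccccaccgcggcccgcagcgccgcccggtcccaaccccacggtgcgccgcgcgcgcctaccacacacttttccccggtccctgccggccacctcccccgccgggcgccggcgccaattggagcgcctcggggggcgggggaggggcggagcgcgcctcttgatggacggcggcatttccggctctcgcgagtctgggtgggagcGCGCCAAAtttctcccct
POLA1: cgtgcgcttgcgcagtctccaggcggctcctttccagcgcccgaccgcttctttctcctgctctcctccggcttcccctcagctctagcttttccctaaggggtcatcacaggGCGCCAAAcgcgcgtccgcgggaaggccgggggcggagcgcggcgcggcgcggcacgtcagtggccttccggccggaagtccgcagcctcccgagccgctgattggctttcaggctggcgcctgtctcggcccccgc
CDT1: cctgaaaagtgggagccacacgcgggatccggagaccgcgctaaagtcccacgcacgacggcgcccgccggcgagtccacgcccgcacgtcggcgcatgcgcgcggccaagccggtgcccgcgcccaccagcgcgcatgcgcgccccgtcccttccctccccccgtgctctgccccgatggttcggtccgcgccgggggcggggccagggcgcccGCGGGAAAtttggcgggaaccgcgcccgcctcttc
POLD2: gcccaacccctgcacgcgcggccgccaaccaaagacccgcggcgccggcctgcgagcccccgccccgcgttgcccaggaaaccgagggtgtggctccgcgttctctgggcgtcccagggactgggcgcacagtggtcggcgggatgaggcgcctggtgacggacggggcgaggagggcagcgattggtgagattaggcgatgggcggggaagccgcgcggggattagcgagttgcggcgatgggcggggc
The MCM7 window belongs to the first of 3 starts and its sites lay 187 and 9 bases before it. The single sites lay 55 bases before the start in RFC3, 18 in POLE, 137 in POLA1 and 35 in CDT1. A match is a stretch of letters and says nothing of binding in these cells. The median log2 fold-change in Huh7-C was 0.37 for the 20 members with a site, of which 18 were above 0, and 0.37 for the 15 without, of which 13 were above 0. In Hep3B-C the medians were 0.03 and 0.12. Among members with a window, a site was held by 4 of 8 up-regulated in Hep3B-C, 2 of 6 down-regulated and 14 of 21 not called.

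All counts on genes lay between 2896418 (Hep3B) and 4641927 (Hep3B-C) per library. By the total reads given in the paper, Hep3B had the most reads of the 4 RNA libraries, yet the fewest counts on genes. The cause was not tested, and every fold-change of the Hep3B pair rests on that library. Levels are given as CPM (each count scaled by the sum of gene counts of its library to a common total). The level of 3 counts, taken as the floor, was 0.646 to 1.04 CPM, and every member was above it in all 4 libraries. All 11 hepatocyte markers examined were detected in each library, but they moved between libraries. They summed to 68000 CPM in Hep3B against 82960 in Hep3B-C, with 5 up and 3 down (median log2 fold-change 0.72), and to 53350 in Huh7 against 27270 in Huh7-C, with 1 up and 6 down (median -1.23). AFP, the fetal counterpart of albumin, had 26 counts in Huh7 and 12 in Huh7-C, against 16175 in Hep3B and 4201 in Hep3B-C, and ALB (albumin) had 482 and 1156 against 56598 and 85731. Huh7 is known as a line that makes both proteins, so the low counts of AFP and ALB go against the label of the Huh7 libraries. The other markers of the 11, however, made up nearly all of the 53350 CPM in Huh7 and of the 27270 in Huh7-C. The identity of these libraries was not tested, every value of the Huh7 pair rests on them, and they are named here as labelled. The Hep3B pair shares no library with them. Of the stem cell markers of the study PROM1 and EPCAM were measured, at a summed 886 CPM in Hep3B against 254 in Hep3B-C, and 68.3 in Huh7 against 69.2 in Huh7-C, and THY1 was at most at 1 count. Markers of fibroblasts, endothelium and leukocytes summed to 14.9 to 49.2 CPM, and PTPRC, CD3E, CDH5 and DCN were listed in no library. Of these markers 0 were up and 1 was down of 8 listed in the Hep3B pair, and 2 were up and 1 down of 7 listed in the Huh7 pair, where their log2 fold-changes ran from -6.15 to 6.94. The part of these markers in the changes of the members was not tested.

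Together the 42 members took 3893 CPM in Hep3B against 5783 in Hep3B-C, and 3364 in Huh7 against 4854 in Huh7-C. POLD2 alone took 137 of this in Hep3B against 1306 in Hep3B-C, and 422 in Huh7 against 811 in Huh7-C. Another 75 replication genes summed to 4402 CPM in Hep3B against 2922 in Hep3B-C, and 3025 in Huh7 against 4072 in Huh7-C, and 20 mitosis genes to 5487 against 3254, and 2510 against 4016. In a bulk culture a larger share of cells in S phase and more transcript per cell cannot be told apart. The levels of single members ranged from 2.42 CPM (CCNE2 in Huh7) to 1306 CPM (POLD2 in Hep3B-C).

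**Figure D1:**
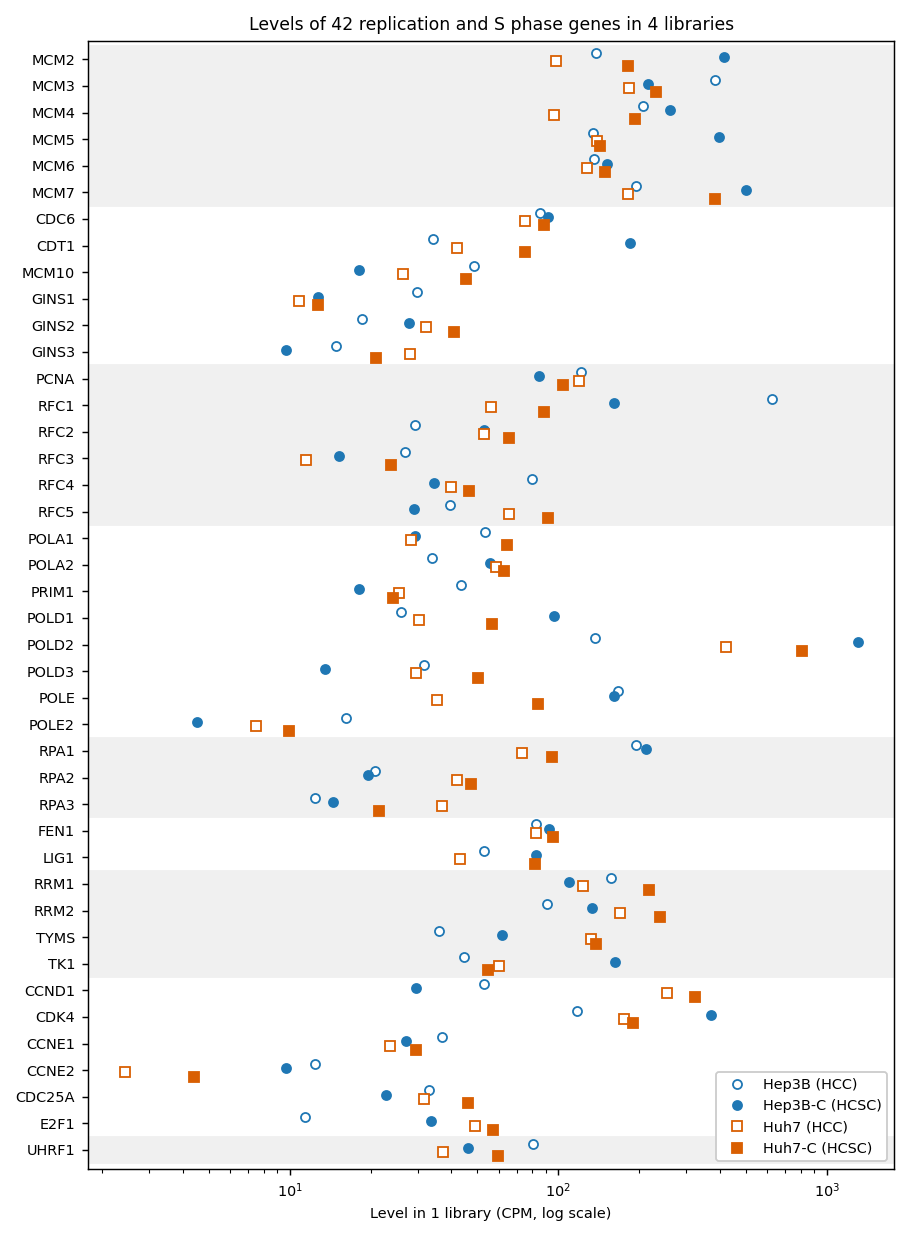
Level of each of the 42 members in the 4 libraries (CPM on a log axis, 1 point per library, open symbols parental lines and filled symbols HCSC lines). POLD2 in Hep3B-C, at 1306 CPM, is the highest point, and CCNE2 in Huh7, at 2.42 CPM, the lowest.

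Members up- or down-regulated in each HCSC line were identified with an exact test of 2 counts given the library totals (Audic-Claverie), adjusted over all genes of the pair, and were called where the FDR did not exceed 0.01 and the log2 fold-change (HCSC/HCC) was 1 or more in size. The test covers counting noise between 2 libraries and no variation between cultures. With a spread between cultures assumed (a biological coefficient of variation, BCV, of 0.4) no member was called in either pair. This setting is not among the 8 counted for single members. Those 8 include the setting used here, a filter on low counts that changed no member call, and DESeq2 size factors, which compared unscaled counts. In Hep3B-C the unscaled counts gave CDT1 and POLD2 their highest log2 values. In Hep3B-C (vs. Hep3B) 9 members were up-regulated (MCM2, MCM5, MCM7, CDT1, POLD1, POLD2, TK1, CDK4 and E2F1), where 13.2% of all genes were, and 7 were down-regulated (MCM10, GINS1, RFC1, RFC4, PRIM1, POLD3 and POLE2), where 30.4% of all genes were. With TMM library sizes the split in Hep3B-C was 15 up (GINS2, RFC2, POLA2, LIG1, RRM2 and TYMS in addition) and 2 down (RFC1 and POLE2), beside 21.6% and 18.1% of all genes. In Huh7-C (vs. Huh7) 4 members were up-regulated (MCM7, RFC3, POLA1 and POLE), where 4.19% of all genes were, and 0 were down-regulated, where 4.15% were. MCM7 was the only member called the same way in both pairs, which 0.568% of 13917 shared genes were as up-regulated and 1.49% as down-regulated.

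The pairs differed in where the middle of all genes lay. Over genes with at least 20 counts in a pair the median log2 fold-change in Hep3B-C was -0.55, against 0.06 in Huh7-C, and TMM library sizes moved the first by 0.60, to 0.04. The members had a median of 0.03 in Hep3B-C, against 0.36 in Huh7-C. Of the 42 members 21 were above 0 in Hep3B-C (50%, compared with 37.8% of genes with at least 20 counts), and 29 were with TMM (69%, compared with 51.0%). In Huh7-C 37 were above 0 (88.1%, compared with 53.9%), and 36 with TMM (85.7%, compared with 51.0%), which called the same number there as before, 4 up (3.73% of genes) and 0 down (4.46%). On the FDR alone, with no minimum fold, 21 members were higher in Huh7-C (50% against 20.3% of genes) and 1, RPA3, was lower (2.38% against 15.9%), whereas in Hep3B-C 15 were higher (35.7% against 25.6%) and 14 lower (33.3% against 47.6%). The log2 fold-changes of the members in Huh7-C lay between -0.77 (RPA3) and 1.25 (POLE).

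**Figure D2:**
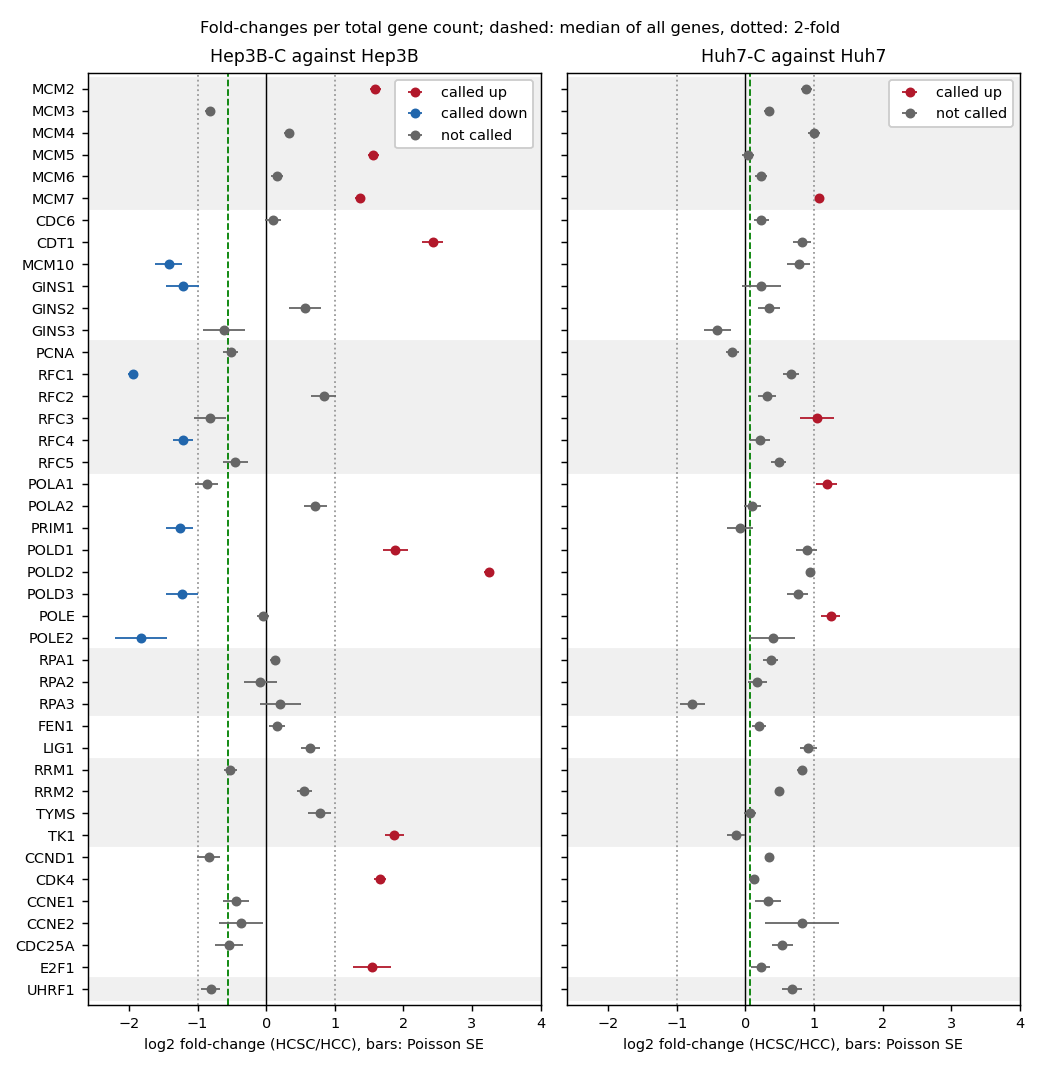
Log2 fold-change (HCSC/HCC, per total gene count) of each member in the Hep3B pair and in the Huh7 pair, with bars of the Poisson standard error of counting and dotted lines at an absolute log2 fold-change of 1. Values in the Hep3B pair run from -1.95 (RFC1) to 3.25 (POLD2), and those in the Huh7 pair from -0.77 to 1.25.

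The MCM2-7 helicase unwinds DNA at the fork and is a ring of 6 different subunits. In Hep3B-C 3 of the 6 were up-regulated (13.2% of all genes) and 3 did not pass. In Huh7-C 1 was up-regulated (4.19% of all genes) and 5 did not pass. MCM7 was at 194 CPM in Hep3B against 502 in Hep3B-C, and 182 in Huh7 against 384 in Huh7-C (563, 2332, 824 and 1663 counts). Both HCSC libraries held more MCM7 than either parental library. It was 2.58-fold higher in Hep3B-C (log2 1.37 ± 0.07 SE of counting, FDR 5.28e-106 by the exact test) and 2.11-fold higher in Huh7-C (log2 1.08 ± 0.06, FDR 3.03e-71), and it kept its call in Huh7-C in all 8 settings with counting noise alone (log2 1.01 to 1.12). In Hep3B-C the call was kept in 7 of the 8 and lost with the GC and length trends removed (log2 0.57). With the assumed BCV it was called in neither pair (FDR 0.323 in Hep3B-C, edgeR's exact test). Exons of MCM7 share 392 bases with AP4M1 on the opposite strand, which had 20 to 58 counts per library, and the strand of counting was not given in the sources used here.

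MCM2 was at 138 CPM in Hep3B against 415 in Hep3B-C, and 98.1 in Huh7 against 182 in Huh7-C (399, 1925, 445 and 788 counts). It rose 3.01-fold in Hep3B-C (log2 1.59 ± 0.08, FDR 1.05e-108 by the exact test), and its 1.85-fold higher level in Huh7-C (log2 0.89 ± 0.09) stayed under the fold threshold. With the GC and length trends removed MCM2 was at 0.78 in Hep3B-C and not called, and at 1.25 and called when also centred. MCM5 was at 135 CPM in Hep3B against 398 in Hep3B-C, and 139.5 in Huh7 against 143 in Huh7-C (391, 1848, 633 and 620 counts). Here the HCSC lines parted: MCM5 rose 2.95-fold in Hep3B-C (log2 1.56 ± 0.08) and the log2 fold-change in Huh7-C was 0.036 ± 0.08, with a difference between the pairs of 1.52 (FDR 1.14e-40 by an exact conditional test over all 4 counts). With the trends removed and centred MCM5 was at 0.83 in Hep3B-C and not called, and the difference, 0.77, no longer passed.

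The other helicase subunits were not called in either pair. MCM3 was at 382 CPM in Hep3B against 216 in Hep3B-C, and 183 in Huh7 against 232 in Huh7-C, with a log2 fold-change of -0.82 in Hep3B-C, against 0.34 in Huh7-C. It was the most abundant subunit per length in Hep3B and lay below MCM7, MCM5, MCM2 and MCM4 in Hep3B-C. MCM4 was at 208 CPM in Hep3B against 261 in Hep3B-C, and 96.5 in Huh7 against 193 in Huh7-C. Its log2 fold-change of 0.9998 in Huh7-C lay just under the threshold of 1 and it was called there with the GC and length trends removed, whereas it was 0.33 in Hep3B-C. MCM6 was at 136 CPM in Hep3B against 152 in Hep3B-C, and 128 in Huh7 against 150.0 in Huh7-C, the subunit with the smallest range per total count. With the trends removed and centred, however, MCM6 was at 1.58 and called in Hep3B-C, and its difference between the pairs, 1.44, passed. Per kilobase (RPKM, recomputed from counts and gene length) the highest subunit exceeded the lowest 3.38-fold in Hep3B and 4.27-fold in Hep3B-C, and 2.29-fold and 3.31-fold in Huh7 and Huh7-C.

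Origin licensing and firing were represented by CDC6 and CDT1, which load the helicase, and by MCM10 and 3 GINS subunits, which take part in its activation. In Hep3B-C 1 of these 6 was up-regulated (13.2% of all genes) and 2 were down-regulated (30.4%), and in Huh7-C none of the 6 was called. CDT1 was at 34.2 CPM in Hep3B against 185 in Hep3B-C, and 42.1 in Huh7 against 75 in Huh7-C (99, 859, 191 and 325 counts). The level in Hep3B-C stood far above the other 3 libraries. CDT1 rose 5.39-fold there (log2 2.43 ± 0.15, 2.98 above the median of all genes, FDR 4.25e-84 by the exact test) and held its call in all 8 settings with counting noise alone, with log2 values of 1.01 to 3.11, but not with the assumed BCV (FDR 0.0788, edgeR's exact test). In Huh7-C it was 1.78-fold higher (log2 0.83 ± 0.13), under the fold threshold, and the pairs differed by 1.60 (FDR 3.31e-15, exact test; 0.71 and not passing with the trends removed and centred). CDC6, its partner in loading, was at 85.3 CPM in Hep3B against 91.8 in Hep3B-C, and 75.4 in Huh7 against 88.4 in Huh7-C, with log2 fold-changes of 0.10 and 0.23.

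MCM10 was at 48.7 CPM in Hep3B against 18.1 in Hep3B-C, and 26.4 in Huh7 against 45.5 in Huh7-C (141, 84, 120 and 197 counts). Its lowest level was in Hep3B-C and its highest in Hep3B, with Huh7-C close to Hep3B. It was 2.68-fold lower in Hep3B-C (log2 -1.42 ± 0.20, FDR 7.91e-13 by the exact test), a direction that turned to 0.087 once the GC and length trends were removed and the values centred, and 1.72-fold higher in Huh7-C (log2 0.78). GINS1 was at 29.7 CPM in Hep3B against 12.7 in Hep3B-C, and 10.8 in Huh7 against 12.7 in Huh7-C (86, 59, 49 and 55 counts). It was 2.33-fold lower in Hep3B-C (log2 -1.22 ± 0.24), which likewise turned to 0.22 with the trends removed and centred. GINS2 was at 18.6 CPM in Hep3B against 27.8 in Hep3B-C, and 32.2 in Huh7 against 40.8 in Huh7-C. GINS3 was at 14.8 CPM in Hep3B against 9.69 in Hep3B-C, and 28 in Huh7 against 21 in Huh7-C, and neither was called in either pair per total count. The log2 fold-change of GINS2 in Hep3B-C, 0.57, turned with the setting, called up with TMM (1.16) and down with the GC and length trends removed (-1.03). In Huh7-C the log2 fold-changes of these GINS subunits were 0.23 (GINS1), 0.34 (GINS2) and -0.41 (GINS3), so that GINS3 was 1 of the 5 members below 0 in that pair.

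PCNA is the sliding clamp that holds polymerases on DNA, and the 5 RFC subunits load it. None of the 6 was up-regulated in Hep3B-C (13.2% of all genes) and 2 were down-regulated (30.4%). In Huh7-C RFC3 was up-regulated (4.19% of all genes) and the other 5 did not pass. PCNA, often used as a marker of proliferation, was at 121 CPM in Hep3B against 84.7 in Hep3B-C, and 119.4 in Huh7 against 104 in Huh7-C, with log2 fold-changes of -0.52 in Hep3B-C (0.078 with TMM, and -1.37 and called with the length trend removed) and -0.19 in Huh7-C. RFC1, the large subunit, was at 625 CPM in Hep3B against 162 in Hep3B-C, and 56.2 in Huh7 against 88.8 in Huh7-C (1809, 752, 255 and 385 counts). Hep3B stood apart from the other 3 libraries. RFC1 was 3.85-fold lower in Hep3B-C (log2 -1.95 ± 0.06, FDR 8.04e-237 by the exact test), though at -1.35 with TMM and only at -0.22 with the trends removed and centred, and 1.58-fold higher in Huh7-C. The difference between the pairs, -2.61 (FDR 2.18e-86, exact test), was the most negative of the 42 per total count. With the trends removed and centred it was -0.67 and did not pass. The most negative differences were then those of POLE2 (-1.49, not passing) and UHRF1 (-1.41).

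RFC4 was at 79.8 CPM in Hep3B against 34.5 in Hep3B-C, and 39.9 in Huh7 against 46.4 in Huh7-C (231, 160, 181 and 201 counts), 2.31-fold lower in Hep3B-C (log2 -1.21 ± 0.15). With TMM it was at -0.61 and not called. RFC3 was at 26.9 CPM in Hep3B against 15.3 in Hep3B-C, and 11.5 in Huh7 against 23.8 in Huh7-C (78, 71, 52 and 103 counts). It rose in Huh7-C, 2.06-fold (log2 1.05 ± 0.24, FDR 8.48e-05 by the exact test), from few counts, and its log2 fold-change in Hep3B-C was -0.82 (0.49 with the trends removed and centred). RFC2 was at 29.4 CPM in Hep3B against 52.8 in Hep3B-C, and 52.9 in Huh7 against 65.8 in Huh7-C. RFC5 was at 39.7 CPM in Hep3B against 29.1 in Hep3B-C, and 65.7 in Huh7 against 91.8 in Huh7-C. RFC5 shares 186 exon bases with WSB2 on the opposite strand, which had more counts than RFC5 in each library and 1625 against 578 in Huh7 and Huh7-C. Per kilobase RFC3 was the lowest RFC subunit in all 4 libraries (4.79 to 11.3 RPKM), and RFC1 fell from 127.9 RPKM in Hep3B to 33.2 in Hep3B-C, near RFC2 (31.2).

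**Figure D3:**
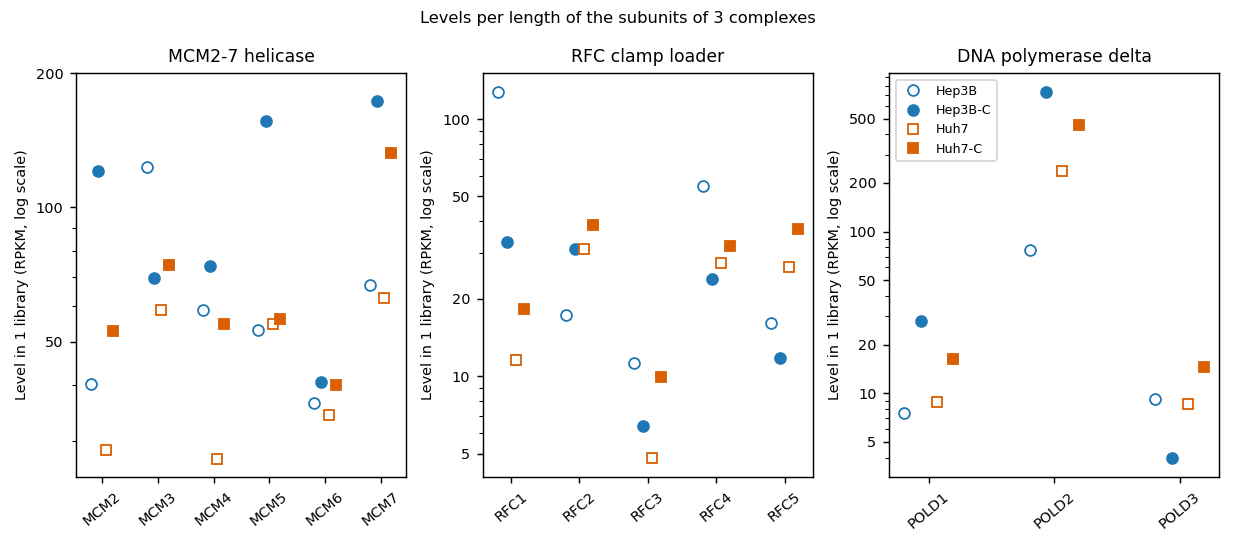
Level per length (RPKM on a log axis, 1 point per library) of the subunits of the MCM2-7 helicase, the RFC clamp loader and DNA polymerase delta. POLD2 lies above POLD1 and POLD3 in every library, up to 735.6 RPKM in Hep3B-C, and RFC1 in Hep3B, at 127.9 RPKM, lies above every other RFC point.

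Polymerase alpha (POLA1 and POLA2) with the primase subunit PRIM1 lays down primers, polymerase delta (POLD1, POLD2, POLD3) extends chiefly the lagging strand and polymerase epsilon (POLE, POLE2) the leading strand. Of these 8 genes 2 rose and 3 fell in Hep3B-C, beside 13.2% and 30.4% of all genes. In Huh7-C 2 rose and 0 fell, beside 4.19% and 4.15%. POLD2, the second subunit of polymerase delta, was at 137 CPM in Hep3B against 1306 in Hep3B-C, and 422 in Huh7 against 811 in Huh7-C (398, 6061, 1916 and 3516 counts). This was the largest change of the members: POLD2 rose 9.49-fold in Hep3B-C (log2 3.25 ± 0.07, 3.80 above the median of all genes) and was called in all 8 settings with counting noise alone, from 1.84 to 3.93, but not with the assumed BCV (FDR 0.0168, edgeR's exact test). It was 1.92-fold higher in Huh7-C (log2 0.94 ± 0.04), under the fold threshold, and with the trends removed and centred it passed there as well (1.10). The pairs differed by 2.31 (FDR 3.35e-198, exact test).

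POLD1, the catalytic subunit, was at 25.9 CPM in Hep3B against 96.1 in Hep3B-C, and 30.4 in Huh7 against 56.5 in Huh7-C (75, 446, 138 and 245 counts). It rose 3.69-fold in Hep3B-C (log2 1.88 ± 0.18, FDR 1.57e-32 by the exact test) and was 1.86-fold higher in Huh7-C (log2 0.89 ± 0.15), under the fold threshold. With the GC and length trends removed POLD1 was at 0.67 in Hep3B-C and not called, and at 1.14 and called when also centred. POLD3, an accessory subunit, was at 31.8 CPM in Hep3B against 13.6 in Hep3B-C, and 29.5 in Huh7 against 50.1 in Huh7-C (92, 63, 134 and 217 counts). It was 2.33-fold lower in Hep3B-C (log2 -1.22 ± 0.24), which turned to 0.13 with the trends removed and centred, and 1.69-fold higher in Huh7-C. The subunits of polymerase delta were thus spread unequally, and POLD2 exceeded the lowest subunit 10.3-fold per length in Hep3B against 186-fold in Hep3B-C, and 27.6-fold in Huh7 against 31.3-fold in Huh7-C.

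POLE, the catalytic subunit of polymerase epsilon, was at 167 CPM in Hep3B against 162 in Hep3B-C, and 35.5 in Huh7 against 84.2 in Huh7-C (484, 750, 161 and 365 counts). Both Hep3B libraries held more POLE than both Huh7 libraries, and Hep3B-C did not differ from Hep3B beyond counting noise per total count (log2 -0.049 ± 0.08; 0.55 with TMM, and 1.02 and called with the length trend removed). It rose 2.37-fold in Huh7-C (log2 1.25 ± 0.14, FDR 5.19e-20 by the exact test), the largest change of a member in that pair. With the trends removed and centred the value was 0.91 and not called. POLE2 was the polymerase subunit with the fewest counts, at 16.2 CPM in Hep3B against 4.52 in Hep3B-C, and 7.49 in Huh7 against 9.92 in Huh7-C (47, 21, 34 and 43 counts). It was 3.54-fold lower in Hep3B-C (log2 -1.82 ± 0.38), and -0.93 with the trends removed and centred.

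POLA1, the catalytic subunit of polymerase alpha, was at 53.5 CPM in Hep3B against 29.3 in Hep3B-C, and 28.2 in Huh7 against 64.4 in Huh7-C (155, 136, 128 and 279 counts). The pairs went apart. POLA1 rose 2.28-fold in Huh7-C (log2 1.19 ± 0.15, FDR 2.29e-14 by the exact test; 0.93 with the trends removed and centred, not called), and had a log2 fold-change of -0.87 ± 0.17 in Hep3B-C, which turned to 0.86 with the trends removed and centred. PRIM1 was at 43.5 CPM in Hep3B against 18.1 in Hep3B-C, and 25.6 in Huh7 against 24.2 in Huh7-C (126, 84, 116 and 105 counts) and was 2.4-fold lower in Hep3B-C (log2 -1.26 ± 0.20; -0.67 with TMM, not called). POLA2 was at 33.8 CPM in Hep3B against 55.8 in Hep3B-C, and 58.8 in Huh7 against 63 in Huh7-C, and was called in neither pair.

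RPA1, RPA2 and RPA3 form the single-strand binding protein, and 0 of the 3 was called in either pair. RPA1 was at 194 CPM in Hep3B against 212 in Hep3B-C, and 73.6 in Huh7 against 95.1 in Huh7-C, and both Hep3B libraries held more of it than both Huh7 libraries. RPA2 was at 20.7 CPM in Hep3B against 19.6 in Hep3B-C, and 42.1 in Huh7 against 47.5 in Huh7-C. RPA3 was at 12.4 CPM in Hep3B against 14.4 in Hep3B-C, and 36.8 in Huh7 against 21.5 in Huh7-C (36, 67, 167 and 93 counts), and its log2 fold-change in Huh7-C, -0.77 ± 0.19 (FDR 1.24e-04 by the exact test), was the only one of a member to pass the FDR below 0 in that pair, short of the fold threshold. The flap nuclease FEN1 was at 82.5 CPM in Hep3B against 92.2 in Hep3B-C, and 82.9 in Huh7 against 95.3 in Huh7-C. The ligase LIG1 was at 52.8 CPM in Hep3B against 82.7 in Hep3B-C, and 43.2 in Huh7 against 81.7 in Huh7-C. The log2 fold-change of LIG1 was 0.64 in Hep3B-C, against 0.92 in Huh7-C, and neither gene was called.

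Of the 4 genes of deoxynucleotide supply, 1 was up-regulated in Hep3B-C (13.2% of all genes) and none was called in Huh7-C. TK1, the salvage enzyme thymidine kinase, was at 44.5 CPM in Hep3B against 163 in Hep3B-C, and 60.4 in Huh7 against 54.9 in Huh7-C (129, 758, 274 and 238 counts). Hep3B-C stood above the other 3 libraries. TK1 rose 3.65-fold in Hep3B-C (log2 1.87 ± 0.14, FDR 4.87e-54 by the exact test), was at 0.67 and not called with the trends removed and centred, and had a log2 fold-change of -0.14 ± 0.13 in Huh7-C. The pairs differed by 2.01 (FDR 1.77e-27, exact test; 0.66 and not passing with the trends removed and centred). TYMS, which makes thymidylate, was at 35.9 CPM in Hep3B against 61.8 in Hep3B-C, and 132 in Huh7 against 139 in Huh7-C, and 967 of its exon bases lie opposite ENOSF1, which had 71 to 212 counts per library. RRM1, the large subunit of ribonucleotide reductase, was at 157 CPM in Hep3B against 109.7 in Hep3B-C, and 123 in Huh7 against 218 in Huh7-C. RRM2, its small subunit, was at 90.8 CPM in Hep3B against 134 in Hep3B-C, and 169.9 in Huh7 against 239.7 in Huh7-C. The log2 fold-change of RRM2 in Hep3B-C was 0.56 and became 1.94, past the threshold, with the trends removed and centred.

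Among 6 regulators of the G1/S transition 2 were up-regulated in Hep3B-C (13.2% of all genes) and none in Huh7-C (4.19%). CDK4, the kinase partner of D-type cyclins, was at 118 CPM in Hep3B against 371 in Hep3B-C, and 175 in Huh7 against 191 in Huh7-C (341, 1724, 796 and 826 counts). It rose 3.15-fold in Hep3B-C (log2 1.66 ± 0.09, FDR 2.96e-103 by the exact test) and the log2 fold-change in Huh7-C was 0.12 ± 0.07. With the length trend removed it was at 0.85 in Hep3B-C and not called. CDK4 shares 1369 exon bases with TSPAN31 on the opposite strand, which had 64 counts in Hep3B and 82 in Hep3B-C. E2F1, the transcription factor, was at 11.4 CPM in Hep3B against 33.6 in Hep3B-C, and 48.9 in Huh7 against 57 in Huh7-C (33, 156, 222 and 247 counts). Hep3B held the fewest counts, and E2F1 rose 2.92-fold in Hep3B-C (log2 1.54 ± 0.27, FDR 2.00e-09 by the exact test) to a level below both Huh7 libraries. With the trends removed and centred it was at 0.70 and not called.

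CCND1, cyclin D1, was at 52.8 CPM in Hep3B against 29.5 in Hep3B-C, and 254 in Huh7 against 322 in Huh7-C (153, 137, 1155 and 1396 counts). Both Huh7 libraries were above both Hep3B libraries. Its log2 fold-change was -0.84 ± 0.17 in Hep3B-C, against 0.34 ± 0.06 in Huh7-C, with no call in either pair. The cyclin E genes CCNE1 and CCNE2 and the phosphatase CDC25A, which act on or activate CDK2, were not called per total count. CCNE1 was at 36.9 CPM in Hep3B against 27.1 in Hep3B-C, and 23.6 in Huh7 against 29.5 in Huh7-C. With the GC and length trends removed it was called down in Hep3B-C (log2 -1.12), but not when also centred (-0.65). CCNE2 had 36, 45, 11 and 19 counts in the same order, and shares 1629 exon bases with INTS8 on the opposite strand, which had 128 to 521 counts. CDC25A was at 33.1 CPM in Hep3B against 22.8 in Hep3B-C, and 31.7 in Huh7 against 46.1 in Huh7-C. UHRF1, which guides maintenance DNA methylation behind the fork, was at 80.8 CPM in Hep3B against 46.1 in Hep3B-C, and 37.2 in Huh7 against 59.8 in Huh7-C, with log2 fold-changes of -0.81 and 0.68.

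Whether the pairs differed was tested for each gene over its 4 counts. With an FDR of at most 0.01 and a difference in log2 fold-change of at least 1, 21 of the 42 members passed, where 39.5% of 13917 shared genes did. The difference was higher in the Hep3B pair for 6 members (MCM5, CDT1, POLD2, TK1, CDK4 and E2F1; 13.5% of genes) and lower for 15 (26% of genes). With the GC and length trends removed and centred 8 passed, where 20.5% of genes did, 4 of them higher in the Hep3B pair (11.7%) and 4 lower (8.78%). The members below 0 in Huh7-C were 5 (GINS3, PCNA, PRIM1, RPA3 and TK1), of which PCNA, PRIM1 and TK1 were above 0 once the length trend was removed, and none of the 5 was called.

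GC content moved with the changes in the Hep3B pair. Across genes with at least 20 counts the log2 fold-change in Hep3B-C had a Spearman correlation of 0.63 with the GC content of the transcript and -0.43 with its length, and among the 42 members of 0.76 and -0.24. In Huh7-C these were -0.06 and 0.32 across genes and 0.04 and 0.60 among members. Genes are not independent replicates, and all points of a pair share its 2 libraries. Of the 14 members with the lowest GC content (35.4% to 45.0%) 0 rose and 6 fell in Hep3B-C, with a median of -0.84. Genes of that GC range had a median of -1.47, with 1.23% up- and 67.1% down-regulated. The 14 members in the middle had 0 up and 1 down and a median of -0.26. Genes of the middle range had a median of -0.52, with 9.54% up- and 33.7% down-regulated. The 14 members with the highest GC content (53.6% to 64.9%) included all 9 up-regulated members and 0 down-regulated ones, with a median of 1.55. Genes of that range had a median of 0.72, with 39.2% up- and 10.8% down-regulated. CDT1 (64.9%), POLD1 (64.8%), E2F1 (62.5%) and TK1 (61.6%) were the members richest in GC, and CCNE2 (35.4%) and RFC3 (39%) the poorest.

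**Figure D4:**
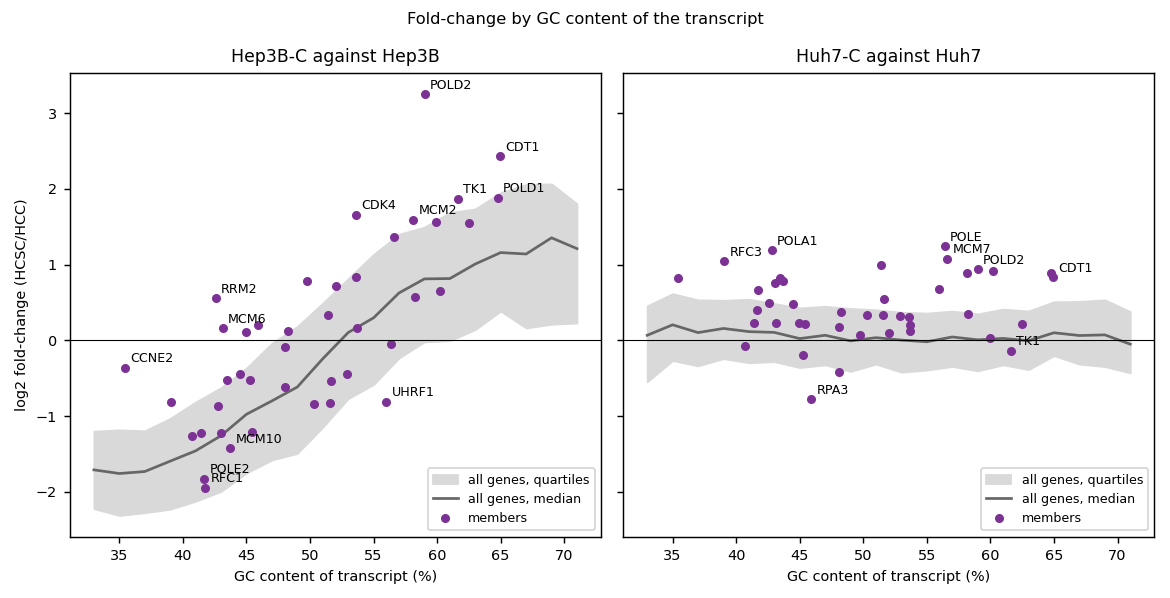
Log2 fold-change of the members against the GC content of their transcript (percent) in each pair, with the median of all genes with at least 20 counts in bins of GC content as a line. In the Hep3B pair the 14 members of highest GC content have a median of 1.55 and the 14 of lowest GC content -0.84, and in the Huh7 pair 0.76 and 0.58.

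When the trends with GC content and length over all genes were removed and the values centred at 0, the members called in Hep3B-C were 11 up (MCM2, MCM6, MCM7, CDC6, CDT1, POLD1, POLD2, RPA1, RRM2, CDK4 and CCNE2) and 0 down, where 11.6% of genes were up and 11.6% down, and the median of the members was 0.50. MCM2, MCM7, CDT1, POLD1, POLD2 and CDK4 were called with and without this step. In Huh7-C 3 members were then up-regulated (MCM7, RFC3 and POLD2; 2.9% of genes) and 0 down-regulated (4.16%). MCM7 and POLD2 were called up in both pairs, as were 0.596% of 13917 shared genes, while 0 members and 1.08% of genes were down in both. With the assumed BCV of 0.4, which left no member called, 0.401% and 1.09% of all genes were called up and down in Hep3B-C, against 0.0878% and 0.081% in Huh7-C.

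**Figure D5:**
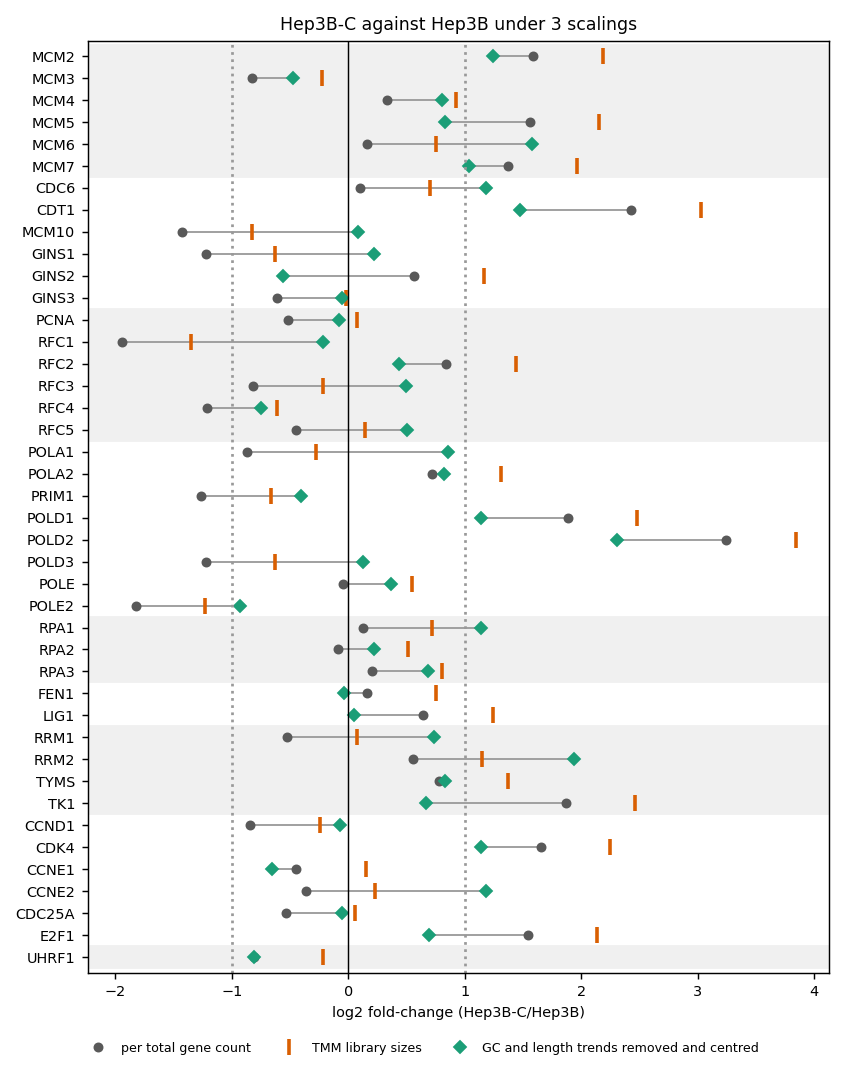
Log2 fold-change of each member in Hep3B-C against Hep3B per total gene count (circles), with TMM library sizes (bars) and with GC and length trends removed and centred (diamonds). TMM moves every member up by 0.60, and the trend step brings MCM10 from -1.42 to 0.087 and RRM2 from 0.56 to 1.94.

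HCSC and HCC lines were also compared over all 4 libraries with edgeR, with the parental line as a block. None of the 42 members passed an FDR of 0.05, where 0.0342% of 11691 genes passed as up-regulated and 0.0428% as down-regulated. Unadjusted p-values under 0.05 were found for 2 of the 42 members, CDT1 (log2 1.80) and POLD2 (log2 2.26), beside 372 of 11691 genes. The smallest adjusted p of a member by edgeR was 0.9994. DESeq2 called 0 members as well, with a smallest adjusted p of 0.5758. It gave 5 of the 42 members an unadjusted p under 0.05, beside 432 of the 16370 genes listed. The fit had 1 residual degree of freedom and a common BCV of 0.514.

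Another 75 genes of DNA replication and G1/S control were measured beside the members: origin recognition and firing factors, accessory subunits, fork protection, chromatin assembly and nucleotide enzymes. In Hep3B-C 10 were up- and 30 down-regulated (median -0.78), with TMM 15 and 14, and 9 and 3 (median 0.15) after the trends were removed and centred. In Huh7-C 8 were up- and 1 down-regulated (median 0.44). Of all genes 13.2% were up- and 30.4% down-regulated in Hep3B-C (21.6% and 18.1% with TMM, 11.6% and 11.6% with the trends removed and centred). In Huh7-C 4.19% and 4.15% were. Of the 19 origin recognition and firing factors 12 were down-regulated in Hep3B-C, and 4 of the 19 were up-regulated in Huh7-C. Only 1 of the 19, WDHD1, was both. The median GC content of the 19 was 41.8%. Of genes with a GC content of 35.4% to 45.0%, 67.1% were down-regulated in Hep3B-C. The part of GC content in these calls was not tested. RECQL4, a helicase needed for origin firing, was at 19 CPM in Hep3B against 76.5 in Hep3B-C, and 16.5 in Huh7 against 34.1 in Huh7-C. It was up-regulated in both HCSC lines (log2 2.00 ± 0.21 and 1.04 ± 0.20), and with the trends removed and centred in Hep3B-C alone (1.32 and 0.86).

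The CDK inhibitor CDKN1A (p21) had 7, 295, 170 and 137 counts in the order Hep3B, Hep3B-C, Huh7 and Huh7-C. It was 24.6-fold higher in Hep3B-C (log2 4.62 ± 0.53, FDR 1.02e-50 by the exact test), from 7 counts, and not called in Huh7-C (log2 -0.24 ± 0.17). POLE4, a small subunit of polymerase epsilon, was at 6.56 CPM in Hep3B against 40.3 in Hep3B-C, and 14.3 in Huh7 against 15.9 in Huh7-C, and rose 6-fold in Hep3B-C. TICRR, an origin firing factor, rose 3.29-fold in Huh7-C (log2 1.72 ± 0.21) and had a log2 fold-change of -0.83 in Hep3B-C (0.057 with the trends removed and centred). WDHD1, which couples polymerase alpha to the helicase, was up-regulated in Huh7-C (log2 1.39 ± 0.24) and down-regulated in Hep3B-C (log2 -1.97 ± 0.23; -0.18 with the trends removed and centred).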

How the data were processed

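Total RNA of 4 cultures had been sequenced on an Illumina Genome Analyzer II, 1 library per cell line. Reads free of adapters and of sufficient quality were aligned by the authors to NCBI Build 36.1 with NextGENe and counted per transcript. The deposited values were raw read counts per gene, with no normalization, and the handling of strand and of reads with several matches is not given in the sources used here. Groups were taken from the titles of the samples. Genes were joined by gene ID. CPM and RPKM were recomputed with the summed gene counts of a library and the deposited gene lengths.

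Each pair (HCSC line and its parent) was tested with the Audic-Claverie test of 2 counts (tail doubled, Benjamini-Hochberg over 15480 genes in the Hep3B pair and 14807 in the Huh7 pair), with thresholds of 0.01 on the FDR and 1 on the size of the log2 fold-change, and 0.5 added to each count. Standard errors are those of Poisson counts. With 1 library per line all intervals, and the p-values of this test and of the test between pairs, cover counting error only. The edgeR and DESeq2 fits over all libraries estimate a further spread between libraries, and the test with a BCV of 0.4 assumes one. The difference between pairs was tested with the exact conditional distribution of the 4 counts (noncentral hypergeometric), adjusted over 13917 genes. All 4 libraries were compared with edgeR 4.0.16 (quasi-likelihood test, TMM, filterByExpr, FDR 0.05) with the parental line as a block, genes not listed for a pair taken as 0 there. Other settings were TMM library sizes, size factors of DESeq2 1.42.0, at least 10 counts, 5 added to each count, trends with length, or with GC content and length, removed by a smooth fit (mgcv 1.9.3) over genes with at least 20 counts, an assumed BCV of 0.4, and for the joint fit no block, total counts, no filter, leaving out each library, and DESeq2. GC content came from GENCODE release 29 transcripts (GRCh38), available for 98.0% and 98.2% of the genes of the pairs, and exon overlaps from the same release. These and the promoter windows serve as annotation, as the alignment used an earlier build. The scripts were tested on simulated data. R 4.3.3 and Python 3.11.15 were used, with scipy 1.17.1, pandas 2.3.3 and numpy 2.4.6.

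All 42 members are named. Other replication and mitosis genes were counted by list, and named were up to 4 called alike in both pairs and the 2 largest called changes in each pair. The members and lists were chosen with earlier results of these data known.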

Additional observations from a re-analysis of the deposited data

Results flagged for a closer look

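The 21 members named here drew attention because their log2 fold-change in Hep3B-C (vs. Hep3B) differed from that in Huh7-C (vs. Huh7) by at least 1, with an FDR of at most 0.01 in the exact test over the 4 counts. The log2 fold-change in the Hep3B pair minus that in the Huh7 pair was 2.31 for POLD2, 2.01 for TK1, 1.60 for CDT1, 1.54 for CDK4, 1.52 for MCM5 and 1.32 for E2F1. It was -2.61 for RFC1, -2.23 for POLE2, -2.20 for MCM10, -2.06 for POLA1, -1.98 for POLD3, -1.86 for RFC3, -1.49 for UHRF1, -1.45 for GINS1, -1.43 for RFC4, -1.34 for RRM1, -1.29 for POLE, -1.19 for PRIM1, -1.18 for CCND1, -1.16 for MCM3 and -1.08 for CDC25A. The FDR of these differences ranged from 3.35e-198 (POLD2) to 3.78e-04 (GINS1). The test covers counting noise in 4 libraries, and differences between cultures of the same line were not measured.

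The 6 members with a positive difference had a GC content of 53.6% to 64.9%, and the 15 with a negative one of 39% to 56.4%. With the GC and length trends of each pair removed and the values centred, 3 of the 21 still passed (-1.17 for RFC4, 1.20 for POLD2 and -1.41 for UHRF1) and 5 others did (1.44 for MCM6, -1.13 for GINS2, 1.27 for RPA3, 1.50 for RRM2 and -1.15 for CCNE1). The part of GC content in the remaining differences was not tested.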

How the results depend on the processing

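The deposited counts gave each pair 1 library per arm, so the limits are the lack of replicate cultures, the depth (3 counts corresponded to 0.646 to 1.04 CPM) and the scaling of the Hep3B pair. Requiring at least 10 counts changed no call or direction of a member, and 5 added to each count removed 1 call (RFC3 in Huh7-C). Calls of members in Hep3B-C were 9 up and 7 down (13.2% and 30.4% of all genes). With TMM library sizes the calls were 15 and 2 (21.6% and 18.1%), and with DESeq2 size factors 16 and 2 (22.9% and 16.5%). The log2 ratio of the DESeq2 factors between the libraries was 0 in each pair, so that this setting compared unscaled counts. Once both trends were removed the calls were 4 and 5 (5.17% and 20.7% of the 15480 genes listed). With these trends removed and centred the calls were 11 and 0 (11.6% and 11.6%). With an assumed BCV of 0.4 the calls were 0 and 0 (0.401% and 1.09%), and 0 of the 4 calls in Huh7-C were left. The median log2 fold-change of the members in Hep3B-C, 0.03, moved to 0.62, 0.71, -0.24 (length trend removed) and 0.50 (both trends removed and centred), and in Huh7-C, 0.36, to 0.48 (length) and 0.51 (both trends). Members called up in both pairs, 1 in the report, were 2 with the length trend removed and 2 with both trends removed and centred, and 0 with the assumed BCV. The difference between pairs passed for 21 members and for 8 with both trends removed and centred. Single members changed the sign of their log2 fold-change as follows. With TMM library sizes, 8 in Hep3B-C (PCNA 0.078, RFC5 0.15, POLE 0.55, RPA2 0.51, RRM1 0.074, CCNE1 0.15, CCNE2 0.23, CDC25A 0.057). With TMM library sizes, 1 in Huh7-C (MCM5 -0.0050). With DESeq2 size factors, 9 in Hep3B-C (GINS3 0.065, PCNA 0.16, RFC5 0.23, POLE 0.63, RPA2 0.60, RRM1 0.16, CCNE1 0.23, CCNE2 0.32, CDC25A 0.14). With DESeq2 size factors, 1 in Huh7-C (MCM5 -0.030). With the length trend removed, 4 in Hep3B-C (GINS2 -0.38, POLE 1.02, RPA3 -0.52, FEN1 -0.21). With the length trend removed, 3 in Huh7-C (PCNA 0.030, PRIM1 0.14, TK1 0.069). With the GC and length trends removed, 9 in Hep3B-C (GINS2 -1.03, RFC2 -0.031, RFC3 0.028, RFC5 0.039, POLA1 0.39, FEN1 -0.50, LIG1 -0.41, RRM1 0.27, CCNE2 0.72). With the GC and length trends removed, 3 in Huh7-C (PCNA 0.043, PRIM1 0.13, TK1 0.038). With the same trends removed and the values centred, 12 in Hep3B-C (MCM10 0.087, GINS1 0.22, GINS2 -0.56, RFC3 0.49, RFC5 0.50, POLA1 0.86, POLD3 0.13, POLE 0.37, RPA2 0.22, FEN1 -0.035, RRM1 0.73, CCNE2 1.18). With the same trends removed and the values centred, 3 in Huh7-C (PCNA 0.013, PRIM1 0.099, TK1 0.0084). Each scaling shifts all genes of a pair by 1 amount, and the trend steps act through GC content and length by their construction. Of the 42 members 23 kept their direction in Hep3B-C and 38 in Huh7-C across 8 settings. The share of all genes that kept theirs was not counted. The settings also moved the pairs unequally. From total counts to DESeq2 size factors the log2 shift was 0.68 in the Hep3B pair, against -0.07 in the Huh7 pair.

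In the edgeR fit the parental line was the replicate block, since an HCSC line and its parent share a cell line. All genes gave 4 up- and 5 down-regulated with the block and 0 and 0 without the replicate block, 3 and 3 with total gene counts in place of TMM, 6 and 8 with no filter on low counts, and 4 and 7 by DESeq2. Leaving out 1 library at a time, fitted without the block because 1 pair was then incomplete, gave 0 to 11 up and 0 to 18 down: 0 and 0 without Hep3B or without Huh7, 3 and 18 without Hep3B-C, and 11 and 7 without Huh7-C. The lone library of a group was taken to vary like the other group. The count of members was 0 up and 0 down in each of these fits.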

Other observations

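The 20 genes of mitosis examined beside the members, which act after S phase, were summarised in the same way. In Hep3B-C 2 were up- and 9 down-regulated (median log2 fold-change -0.33), with TMM library sizes 4 and 6, and with GC and length trends removed and centred 3 and 0. In Huh7-C 4 were up- and 0 down-regulated (median 0.61). Of all genes 13.2% were up- and 30.4% down-regulated in Hep3B-C, against 4.19% and 4.15% in Huh7-C. CENPF, a kinetochore protein, was at 1001 CPM in Hep3B against 107 in Hep3B-C, and 50 in Huh7 against 151 in Huh7-C. It was 9.38-fold lower in Hep3B-C (log2 -3.23 ± 0.07 SE of counting; -0.92 with the trends removed and centred) and 3.02-fold higher in Huh7-C (log2 1.59 ± 0.11). CDK1, the mitotic kinase, had 170, 101, 39 and 112 counts in the order Hep3B, Hep3B-C, Huh7 and Huh7-C, with log2 fold-changes of -1.43 ± 0.18 (-0.17 with the trends removed and centred) and 1.58 ± 0.27. NUSAP1, which binds spindle microtubules, was 4.29-fold lower in Hep3B-C (log2 -2.10; -1.0 with the trends removed and centred) and had a log2 fold-change of 0.40 in Huh7-C.

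The promoters of the mitosis genes and of the members differed in the motifs they held. A CHR element (TTTGAA or TTCGAA on either strand) was found in 12 of the 14 mitosis genes with a window (85.7%), in 2 of 35 members (5.71%) and in 19.5% of 27305 genes. The E2F motif was found in 2 of the 14 mitosis genes (14.3%), in 20 of 35 members (57.1%), in 17 of 63 other replication genes (27.0%) and in 3.99% of all genes. A CCAAT box was found in 13 of 14 mitosis genes (92.9%), 21 of 35 members (60.0%) and 39.7% of all genes.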
